A study of Mus musculus with 6 samples.

Results

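The untreated library of differentiating mouse neural stem cells was set against the 2 ligand libraries of the same state jointly, 1 against 2. These are 3 of the 6 libraries of the series, chosen by their labels alone. The cells were neural stem cells of the OG2 strain at passage 8, differentiated before sampling and labelled D2, a term that the labels do not spell out. The control received neither ligand. The other two received naloxone, an antagonist of opioid receptors, or DAMGO, a peptide that activates the mu opioid receptor, at doses that the labels do not give. The remaining 3 libraries are undifferentiated cells of the same strain and passage, called NSC, again as control, naloxone and DAMGO. The series asks what the ligands do to growth and differentiation of these cells. Every group held 1 library, and whether each came from its own culture is not stated. The ligand libraries are different treatments and not replicates, and the single control limits every statement to a description of these libraries, with no p-value.

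Opioid receptors are G protein-coupled receptors for enkephalins and other peptides, and enkephalins are cut from the precursor encoded by Penk. Extracellular matrix is built from fibrillar collagens, fibronectin and small proteoglycans, and is remodelled by matrix metalloproteinases and held in check by their inhibitors, the TIMPs. In cultures of neural stem cells, differentiation yields astrocytes, oligodendrocyte lineage cells and neurons, which make little fibrillar collagen. Osteopontin, encoded by Spp1, is a secreted phosphoprotein that binds integrins.

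A small set of genes, several of them for matrix and secreted proteins, stood higher in the D2 control than in both ligand libraries. Spp1 was 176-fold higher and Fn1, which encodes fibronectin, was 5.07-fold higher. Penk and Mmp3, a metalloproteinase of the stromelysin type, had counts in the control and none in either ligand library. Among genes of at least 20 CPM, the third gene called higher was the transcription factor gene Foxo1, at 2.38-fold. Of the genes of that level that were lower in the control, the predicted genes Gm20721 and Gm42418 were 4.79-fold and 2.17-fold higher over both ligand libraries together. Lars2 and Malat1 were 2.11-fold and 1.85-fold higher on the same measure but were not called. The ligand libraries differed from each other here. In naloxone and DAMGO, Gm42418 stood at 1384 and 955 CPM, Lars2 at 301 and 150 CPM and Malat1 at 403 and 623 CPM. Gm20721 overlaps Gnas, and their reads cannot be told apart. Summed, Gm20721 and Gnas stood at 1780, 1560 and 1600 CPM in control, naloxone and DAMGO.

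The D2 libraries held 10218353 (control), 8417074 (naloxone) and 8809642 (DAMGO) expected counts, so equal levels give more counts in the control, and the side of the control is always judged on scaled levels. Counts are given below in the order control, naloxone, DAMGO. Of the genes, 12955 had a mean of at least 10 expected counts over the 3 libraries and entered the comparison, and they are called tested genes below. A gene is called higher here when its level in CPM, the count scaled to library size with TMM factors, was at least 1.5-fold above that in each ligand library, and called lower when at least 1.5-fold below each. There were 99 genes called higher, 0.764% of those tested, and 195 called lower, 1.51%. At 2-fold the numbers were 44 (0.34%) and 40 (0.309%). On the deposited TPM values with a pseudocount of 1 they were 88 (0.679%) and 131 (1.01%), of which 65 and 86 were among the genes called on counts. Genes that lay above both ligand libraries by any amount numbered 4166 (32.2%), and 4142 (32.0%) lay below both. The genes called were rarely abundant. Of 7925 genes of at least 20 CPM, 3 were called higher (0.0379%) and 9 lower (0.114%), and the median level of the 99 was 1.9 CPM against 31.5 CPM over all tested genes. The 99 genes summed to 649 CPM in the control, 203 CPM with naloxone and 207 CPM with DAMGO.

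**Figure D1:**
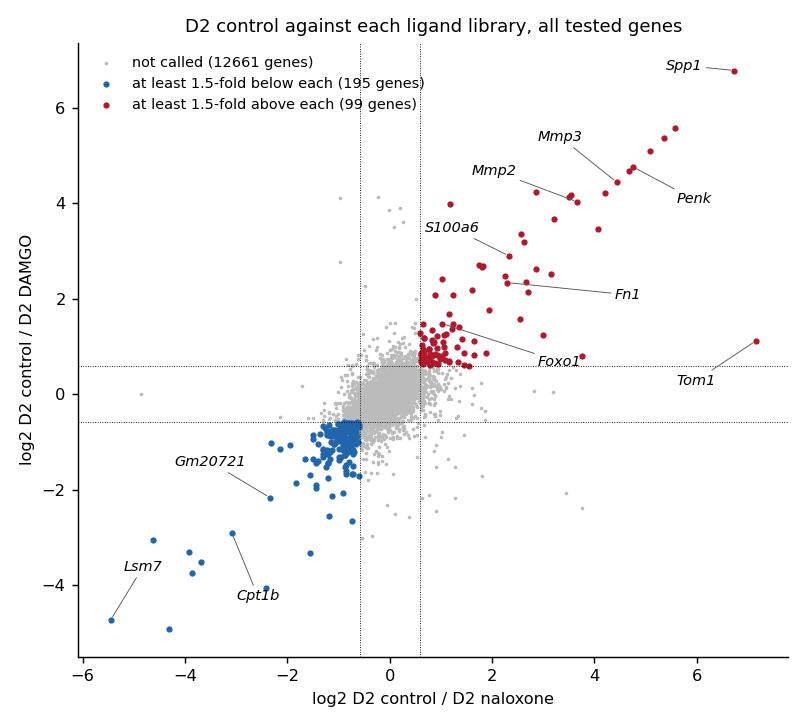
Log2 ratio of the D2 control over D2 naloxone (horizontal) and over D2 DAMGO (vertical) for each of the 12955 tested genes, with dotted lines at 1.5-fold. The 99 red genes lie at least 1.5-fold above each ligand library and the 195 blue ones at least 1.5-fold below each. Both axes share the control library.

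The 2 ligand libraries also differed from each other. Past 1.5-fold, 289 genes were higher and 455 lower in the control than with naloxone, 274 higher and 451 lower than with DAMGO, and 292 higher and 333 lower with naloxone than with DAMGO. Over the genes of 20 CPM or more the SD of the log2 ratio over genes was 0.181 for control over naloxone, 0.175 for control over DAMGO and 0.167 for naloxone over DAMGO. In the NSC libraries these SDs were 0.0929, 0.103 and 0.108. The naloxone to DAMGO difference is the only measure of spread in the D2 state.

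Spp1 (chromosome 5, 104435118 to 104441050, mm10) had 622 expected counts in the control, 3 with naloxone and 3 with DAMGO. In TMM CPM these are 61.1, 0.355 and 0.340, and the deposited TPM values were 98.34, 0.91 and 0.55. The ratio of the control to both ligand libraries together was 176, with an exact 95% counting interval of 80.3 to 481, which covers counting error only. The NSC libraries lay between, at 10.8 CPM in the control, 9.21 CPM with naloxone and 9.44 CPM with DAMGO. The D2 control was thus above all NSC libraries for Spp1, and both D2 ligand libraries were below all of them.

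Fn1 (chromosome 1, 71585520 to 71653200) had 565, 94 and 95 counts in control, naloxone and DAMGO, or 55.5, 11.1 and 10.8 CPM. The ratio was 5.07, with an interval of 4.29 to 6.01. Its reads were partly divided between features, as its expected counts were not whole. In NSC the control was slightly below both ligand libraries, with 23.9 CPM against 28.4 CPM with naloxone and 24.04 CPM with DAMGO. Foxo1 (chromosome 3, 52268336 to 52353221), a forkhead factor held out of the nucleus by insulin signalling, had 622, 252 and 192 counts, or 61.1, 29.8 and 21.8 CPM. Its ratio was 2.38 (interval 2.10 to 2.69), and its reads too were partly divided. Per length, the control levels of Spp1, Fn1 and Foxo1 were 98.3, 28.4 and 15.4 TPM, so that Foxo1 was the lowest of the group on that scale.

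Sequences upstream of the starts of the genes called higher were taken from RefSeq (build GRCm38.p6), where 63 of the 99 genes had a matching promoter. Windows are the 250 bases before the start, 5′ to 3′, and the Spp1, Mmp3, Timp1 and Foxo1 windows are shown because these genes carry the main differences and the table holds them. Capitals mark the letters TGANTCA, the form of AP-1 elements, and those of a core promoter box, TATAAA, each searched on both strands, and the 2 forms do not overlap in these windows. The Spp1 window is chr5:104434861-104435110, Mmp3 chr9:7445572-7445821, Timp1 chrX:20869916-20870165 and Foxo1 chr3:52268087-52268336, all on the plus strand.
Spp1: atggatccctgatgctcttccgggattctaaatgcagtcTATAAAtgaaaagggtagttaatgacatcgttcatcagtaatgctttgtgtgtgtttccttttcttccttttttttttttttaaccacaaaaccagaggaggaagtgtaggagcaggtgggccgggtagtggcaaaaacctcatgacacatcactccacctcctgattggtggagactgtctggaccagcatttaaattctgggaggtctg
Mmp3: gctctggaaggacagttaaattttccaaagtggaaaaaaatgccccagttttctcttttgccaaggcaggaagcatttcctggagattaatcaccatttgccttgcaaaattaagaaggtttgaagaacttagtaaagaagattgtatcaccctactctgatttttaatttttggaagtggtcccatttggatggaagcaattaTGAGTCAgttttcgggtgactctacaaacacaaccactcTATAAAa
Timp1: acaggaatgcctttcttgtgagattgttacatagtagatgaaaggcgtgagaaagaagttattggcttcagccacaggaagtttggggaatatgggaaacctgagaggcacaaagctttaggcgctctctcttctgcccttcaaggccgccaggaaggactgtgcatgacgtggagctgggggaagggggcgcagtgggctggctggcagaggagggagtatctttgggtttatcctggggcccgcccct
Foxo1: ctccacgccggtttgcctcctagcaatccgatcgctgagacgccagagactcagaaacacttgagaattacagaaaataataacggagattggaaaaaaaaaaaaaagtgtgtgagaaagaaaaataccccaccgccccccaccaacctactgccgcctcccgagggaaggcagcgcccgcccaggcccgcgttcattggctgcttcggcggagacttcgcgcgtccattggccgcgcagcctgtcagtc
In Mmp3 the TGANTCA form lay at -46 to -40 and TATAAA at -7 to -2 relative to the start. In Spp1 a TATAAA lay at -211 to -206, and neither set of letters was in the Timp1 and Foxo1 windows. Of the 63 genes, 3 (4.76%) held TGANTCA and 10 (15.9%) held TATAAA, against 7.82% and 14.3% of 27025 genes with a RefSeq promoter of the same length. A match is a description of letters.

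The collagen and matrix genes were the list with most called members. Of 26 tested genes of that list, 8 were called higher and 0 lower, against 0.764% and 1.51% of all tested genes. In 12 (46.2%) the control lay above both ligand libraries and in 7 (26.9%) below both, against 32.2% and 32.0%. These shares over all tested genes are the background for every D2 list below. The median log2 ratio was 0.09 (0.00 over all tested genes). The list has 34 members. The other 8 were too low to be tested, and in all 8 the control was above both ligand libraries, with Postn (12, 2 and 1 counts), Dcn (11, 1 and 0) and Lox (15, 5 and 4) among them. A gene of such low counts passes the filter more readily when the control is high, so the 8 of 26 is no independent support. Col1a1 (chromosome 11, 94936224 to 94953042) and Col3a1 (chromosome 1, 45311538 to 45349706), chains of fibrillar collagens I and III, had 49, 7 and 6 counts and 40, 3 and 4 counts. The ratios were 6.39 (interval 3.42 to 12.8) and 9.69 (4.30 to 25.6). The proteoglycan biglycan, Bgn (chromosome X, 73483602 to 73495933), had 50, 3 and 6 counts, a ratio of 9.42 (4.59 to 21.8). Col1a2, Col6a1, Col6a3 and Thbs2, which encodes a thrombospondin, were 2.29 to 4.71-fold higher. All of these levels are low. Without Fn1 the 7 called members summed to 23.4 CPM in the control, 4.38 CPM with naloxone and 4.54 CPM with DAMGO.

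The members that were not called lay on both sides. Col5a2, a fibrillar collagen chain, had 137, 80 and 95 counts and Col18a1 had 83, 61 and 42, with the control above both ligand libraries after scaling. Col4a1, a basement membrane chain, had 575, 524 and 502 counts, and Sparc, a matrix glycoprotein, had 3266, 3000 and 2888, with the control below both. Over the list as a whole the summed level was 882 CPM in the control against 893 and 819 CPM. In the list of basement membrane and integrin genes 20 were tested, 0 were called in either direction, and the control lay above both in 6 and below both in 5.

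Of the genes for enzymes that cut matrix and for their inhibitors, 3 are given, which were chosen after their values were seen. Mmp2 (chromosome 8, 92827291 to 92853420), the gelatinase, had 72, 3 and 2 counts, a ratio of 24.4 (interval 9.99 to 77.5). Mmp3 (chromosome 9, 7445822 to 7455975) had 46, 0 and 0 counts and was at least 26.0-fold higher, with a floor of 3 counts over the ligand libraries. It had 0 counts in all NSC libraries, and its reads were partly divided between features. Timp1 (chromosome X, 20870166 to 20874735), an inhibitor of these enzymes, had 41, 2 and 1 counts, a ratio of 23.2 (7.39 to 117). For Timp1 the NSC control was below both NSC ligand libraries, with 1.88 CPM against 3.54 and 2.96 CPM. Mgp, a matrix Gla protein gene, had 35, 0 and 1 counts, and Serpina3n, a serine protease inhibitor gene, had 27, 2 and 3.

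Penk (chromosome 4, 4133531 to 4138819) had 58 counts in the control and 0 in each ligand library, at least 32.8-fold higher. In CPM the control stood at 5.70. The NSC libraries had 0, 1 and 0 counts, so that the D2 control was the only library of the 6 with more than 1 count of Penk. The other opioid peptide precursors were near 0: Pdyn had 1, 0 and 1 counts and Pomc 7, 6 and 7. Of the receptors, the mu receptor Oprm1 had 0 counts in the 3 libraries, Oprd1 had 0, 0 and 1 and Oprk1 had 1, 0 and 0. A count of 0 allows up to 0.294 CPM in the control, 0.356 CPM with naloxone and 0.341 CPM with DAMGO. The nociceptin receptor Oprl1 stood at 19.3, 20.2 and 17.8 CPM, and Ogfr, the opioid growth factor receptor, at 158, 165 and 171 CPM, with ratios of 1.01 (interval 0.845 to 1.21) and 0.942 (0.886 to 1.00).

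**Figure D2:**
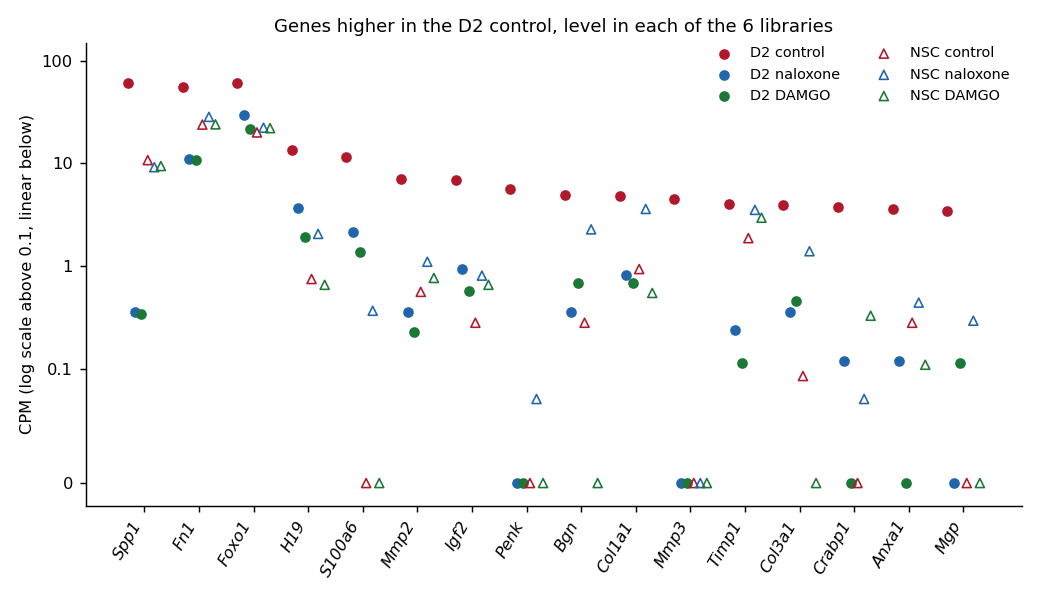
Level in CPM (log scale above 0.1, linear below) of 16 genes that were higher in the D2 control, in the 3 D2 libraries (filled circles) and the 3 NSC libraries (open triangles), with 1 library per point and no error bar. For Spp1 the D2 control stands at 61.1 CPM and both D2 ligand libraries at or below 0.355 CPM, with NSC between.

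The list of contractile and actin cytoskeleton genes had 5 of 26 tested members called higher and 0 lower, with 13 above both and 5 below both and a median of 0.05. In all 4 members too low to be tested the control was above both, so the 5 of 26 is again no independent support. Of the 5, Acta2 encodes a contractile protein, and the others encode calcium-binding S100 proteins and annexins. S100a6 (chromosome 3, 90612882 to 90624181), a calcium-binding protein gene, had 118, 18 and 12 counts, a ratio of 6.67 (interval 4.44 to 10.3). Its neighbour S100a4 had 48, 16 and 15 counts. Acta2, smooth muscle actin, had 94, 43 and 46 counts, a ratio of 1.79 (1.33 to 2.42), and Anxa2, an annexin, 124, 64 and 46. Anxa1 had 37, 1 and 0 counts. The abundant members lay closer together: Vim, which encodes vimentin, had 14320, 12372 and 12385 counts and Flna, filamin A, 552.5, 531 and 552.6 CPM, with the control between the ligand libraries for both. Without the naloxone library, that is against DAMGO alone, 9 of the 26 were called higher. That rule is looser, and over all tested genes it called 274 higher in place of 99.

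Imprinted genes on chromosome 7 included a neighbouring pair that was higher in the control. H19, an imprinted long noncoding RNA (142575529 to 142578143), had 137, 31 and 17 counts, a ratio of 4.84 (3.46 to 6.87). Igf2, the growth factor gene next to it (142650766 to 142666816), had 71, 8 and 5 counts, a ratio of 9.26 (5.09 to 18.2). These 2 were the called members of 17 tested imprinted genes, where the share called higher over all tested genes was 0.764%. Of the others, Igf2r, the receptor that removes IGF2, had 591, 427 and 415 counts, with the control above both after scaling. Peg3, a zinc finger gene, had 1382, 1415 and 1413 counts, with the control below both. Over the 17 the control was above both in 6 and below both in 5, with a median of 0.03. In the 8 members too low to be tested, the control was above both in 4 and below both in 1. Igf2 passes the filter on counts through its high control count, so the 2 of 17 is no independent support.

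Further secreted and signalling genes were called higher at low counts. Crabp1, a retinoic acid binding protein gene, had 38, 1 and 0 counts, and Ptges, prostaglandin E synthase, 28, 2 and 4. Ass1, which encodes argininosuccinate synthase, had 46, 15 and 8 counts, and Lgals3, galectin 3, had 27, 9 and 6. Matn4, a matrilin gene, had 77, 30 and 30. Adora2a, an adenosine receptor, had 62, 32 and 34 and Slitrk1, a neuronal membrane protein gene, 76, 40 and 41. Cdkn2a, which encodes cell cycle inhibitors, had 98, 47 and 53 counts (ratio 1.66, interval 1.24 to 2.22), and Gadd45a, a stress-induced gene, 112, 60 and 58 (1.61, 1.23 to 2.10). Among 13 tested genes of MHC class I and interferon responses, 2 were called higher, where the share over all tested genes was 0.764%. They were H2-D1, an MHC class I heavy chain (190, 84 and 104 counts, 1.71-fold, 1.39 to 2.11), and Bst2, an interferon-induced membrane protein gene (20, 6 and 5). In that list the control was above both in 8 and below both in 2, with a median of 0.11. In the 9 members too low to be tested, the control was above both in 6 and below both in 2. Bst2 passes the filter on counts through its high control count, so the 2 of 13 is no independent support.

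Marker lists of other cell types gave no uniform pattern beside these genes. In bulk libraries, fewer cells of a type and less RNA per cell cannot be told apart. Of 17 fibroblast and pericyte markers 7 were tested and 0 were called. In the 10 too low to be tested, the control was above both in 3 and below both in 1. The called collagen genes Col1a1, Col1a2 and Col3a1 were counted in the matrix list, so the 0 called here does not cover them. The summed level was 580 CPM in the control, 513 CPM with naloxone and 530 CPM with DAMGO. That sum is mostly Pdgfra, which is also the oligodendrocyte progenitor receptor gene given below. Pdgfrb, the pericyte receptor, had 78, 73 and 71 counts (the control below both after scaling), Des had 0 in all 3 libraries, Twist1 had 5, 0 and 1 and Twist2 had 5, 0 and 0. Endothelial markers summed to 5.31, 5.80 and 4.54 CPM, with 3 of 10 at 0 in all 3 libraries, and microglia and macrophage markers to 1.47, 2.01 and 2.50 CPM, with 6 of 12 at 0. Ependymal markers summed to 28.8, 32.9 and 31.1 CPM, pluripotency markers to 4.03, 6.16 and 4.20 CPM, and neural crest and Schwann markers to 47.6, 41.7 and 45.4 CPM. The part of other cell types in the matrix differences was not tested.

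The labelled lineage was visible in all 3 libraries. Nes, the filament of neural progenitors, stood at 395, 412 and 409 CPM and Tubb3, a neuronal tubulin, at 107.5, 99.2 and 105.5 CPM. Gfap, an astrocyte filament, was called lower, with 70, 96 and 96 counts, or 6.88, 11.4 and 10.9 CPM. It was the called member of 25 astrocyte genes, in which the control was above both in 9 and below both in 4. Among 17 oligodendrocyte lineage genes 0 were called, yet the control was above both in 12 (70.6%, against 32.2% over all genes) and below both in 2, with a median log2 ratio of 0.10. Olig2, a lineage factor, had 1215, 1052 and 1070 CPM and Pdgfra, the progenitor receptor, 415, 352 and 367.5 CPM. The Pdgfra ratio was 1.15 (interval 1.11 to 1.20, counting error only). Neural stem cell genes lay above both in 14 of 24 and below both in 6. Mki67, the proliferation marker, stood at 22.4, 41.2 and 29.8 CPM, so it was lowest in the control. The list of G2/M and mitosis genes did not share this: of 25 tested 0 were called. In that list the control lay above both in 7 and below both in 8, with a median of -0.02. DNA replication genes lay below both in 12 of 26 and above both in 4, with a median of -0.08. No gene of this list was called. In NSC the control also lay below both in 12 of the 26 and above both in 6.

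Cholesterol synthesis genes showed a small shift in the same direction in both states. Of 23 tested members 0 were called, but the D2 control lay above both ligand libraries in 16 (69.6%) and below both in 1, with a median log2 ratio of 0.10. In the NSC libraries, which share no library with D2, the control lay above both in 18 of 23 (78.3%, against 31.7% of all genes there) and below both in 3 (31.6% of all genes), with a median of 0.05. Hmgcs1, HMG-CoA synthase, had 1199, 1116 and 1118 CPM in D2 and 1586, 1524 and 1557 CPM in NSC. Srebf2, the sterol-sensing transcription factor, had 451, 421.5 and 425 CPM in D2 and 525, 505 and 516 CPM in NSC. Their D2 ratios were 1.07 (interval 1.05 to 1.10) and 1.07 (1.03 to 1.11), with intervals that cover counting error only. In log2 these ratios were 0.102 and 0.0923. The SD of log2 naloxone over DAMGO, over genes of at least 20 CPM, was larger at 0.167.

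**Figure D3:**
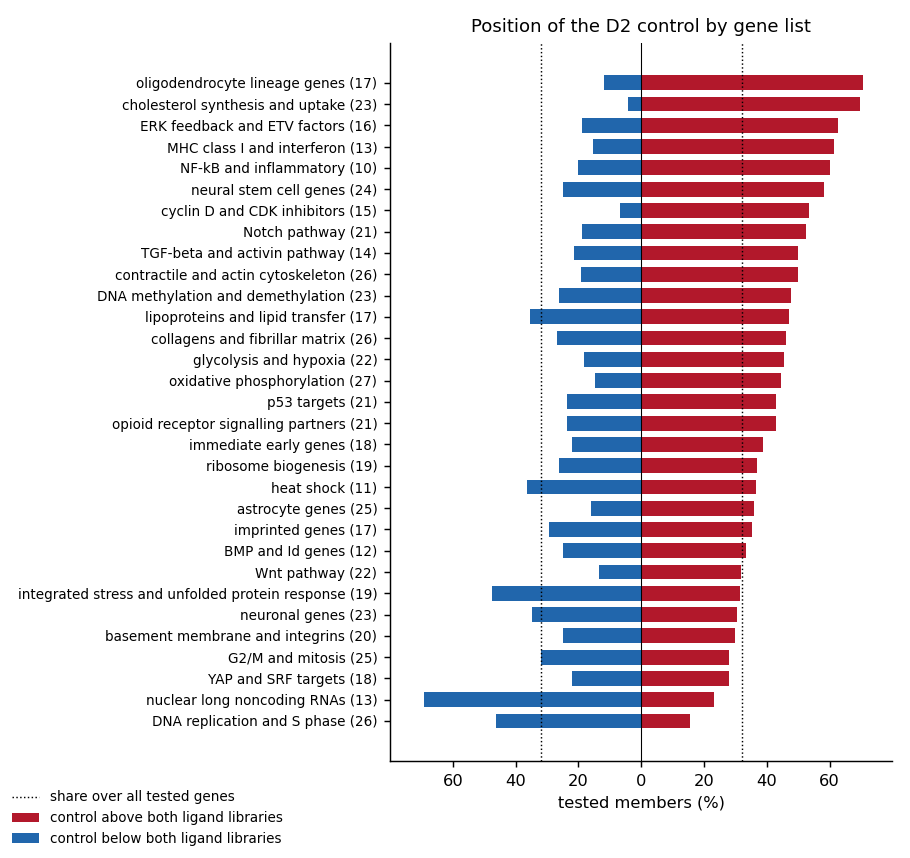
Share of tested members (number in brackets) of each gene list with at least 10 tested members in which the D2 control lay above both ligand libraries (red) or below both (blue), with dotted lines at the shares over all tested genes (32.2% and 32.0%). Oligodendrocyte and cholesterol genes have the highest red bars, and nuclear long noncoding RNAs (69.2%), stress and unfolded protein response genes (47.4%) and DNA replication genes (46.2%) the highest blue ones.

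Among genes of at least 20 CPM, 12 of the 15 highest in the control were not called. Their ratios were 1.25 to 1.47. They included Hbegf, an EGF receptor ligand gene (24.7, 18.9 and 17.4 CPM), Basp1, a growth cone protein gene (338, 265 and 262 CPM), Hnrnpa0, an RNA-binding protein gene (444, 340 and 352 CPM), and Gnas, which encodes the stimulatory G protein alpha subunit (1730, 1327 and 1393 CPM). The others were Ccdc85c, H1fx, a linker histone gene, Pcdhb9 and Pcdhb10, protocadherin genes, Slc7a1, an amino acid transporter gene, Ifnar2, an interferon receptor gene, Prdm16 and Dmrta2, transcription regulator genes. Gnas overlaps Gm20721, which was called lower, and their reads cannot be told apart. In NSC the control lay below both ligand libraries in 8 of the 15 and above both in 4.

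The genes called lower were mostly low or of uncertain identity. Of the 195, 130 (66.7%) were protein-coding against 92.8% of all tested genes, and 64 had names of predicted genes. Of the 9 of at least 20 CPM, 5 were predicted or clone names, and the others were Zfp932, Arhgap5, Ttc14 and Pnn. Zfp932, a zinc finger gene, had 152, 227 and 205 counts, and Arhgap5 had 175, 281 and 235. Pnn, a gene of a nuclear splicing protein, stood at 38.8, 58.8 and 60.3 CPM, 1.53-fold higher with the ligands (interval 1.37 to 1.73). Zinc finger genes with Zfp symbols made up 12 of the 195 (6.15%, against 2.62% of all tested genes), and the control lay below both ligand libraries in 184 of 340 and above both in 61. In NSC it lay below both in 90 and above both in 124 of 336.

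The other 11 of the 15 lowest abundant genes were below both ligand libraries without being called. Malat1, a nuclear long noncoding RNA, stood at 278, 403 and 623 CPM, so the ligand libraries also differed from each other. Lars2, a mitochondrial leucyl-tRNA synthetase gene, stood at 106, 301 and 150 CPM. Atrx, a chromatin remodelling gene, had 41.6, 62.2 and 59.2 CPM, Ssb, an RNA-binding protein gene, 34.7, 54.0 and 50.8 CPM, and Naa15, an N-terminal acetyltransferase subunit gene, 26.4, 38.7 and 42.3 CPM. The rest were Ago3, Arid4b, Rnf219, Dek, Mpp5 and Tpr, with ligand levels 1.42 to 1.53-fold above the control. On the deposited TPM values the control lay between the ligand libraries for Ago3, at 7.98, 5.93 and 11.6. The list of nuclear long noncoding RNAs lay below both in 9 of 13 and above both in 3, with a median of -0.30 and summed levels of 1650, 2050 and 2380 CPM.

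**Figure D4:**
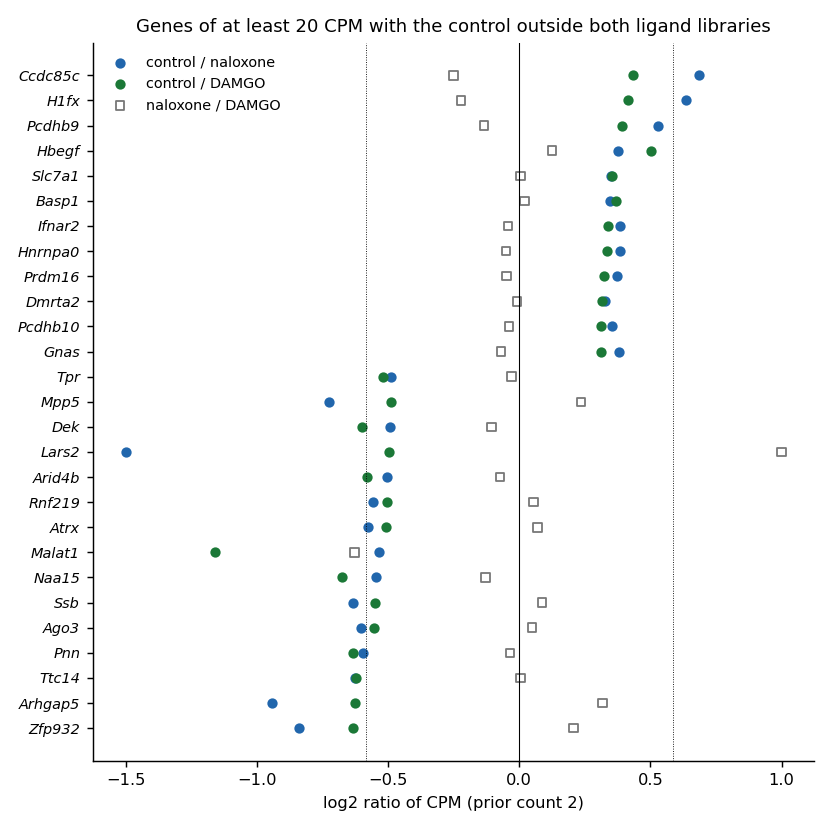
Log2 ratios of control over naloxone (blue), control over DAMGO (green) and naloxone over DAMGO (grey squares) for the abundant genes named for the highest and lowest ratios, without Spp1, Fn1 and Foxo1. Dotted lines mark 1.5-fold. Lars2 and Malat1 have the largest difference between the ligand libraries, and most other grey squares lie near 0.

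The side on which the control lay varied with base composition. Over genes of at least 20 CPM split into 5 equal bins by the GC content of their transcripts, the control lay below both ligand libraries in 48.8% of the lowest bin (1581 genes, median GC 43.5%) and above both in 16.5%. In the highest bin (median 58.1%) the shares were 14.8% and 44.0%. The median log2 ratio of control over naloxone went from -0.10 to 0.11 from the lowest to the highest bin, and that of control over DAMGO from -0.01 to -0.01. Naloxone over DAMGO went from 0.08 to -0.11. In NSC the shares below both and above both were 28.3% and 30.2% in the lowest bin and 29.1% and 31.1% in the highest. The 15 lowest abundant genes had a median GC of 43.8% and all genes of at least 20 CPM 50.8%. The median GC was 53.2% for the genes called higher (97 with a value) and 45.8% for those called lower (188 with a value), against 50.6% for all tested genes. For the lists, the median GC was 55.6% for oligodendrocyte genes, 44.1% for nuclear long noncoding RNAs, 48.2% for DNA replication genes and 49.1% for cholesterol genes. The part of base composition in these differences was not tested.

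**Figure D5:**
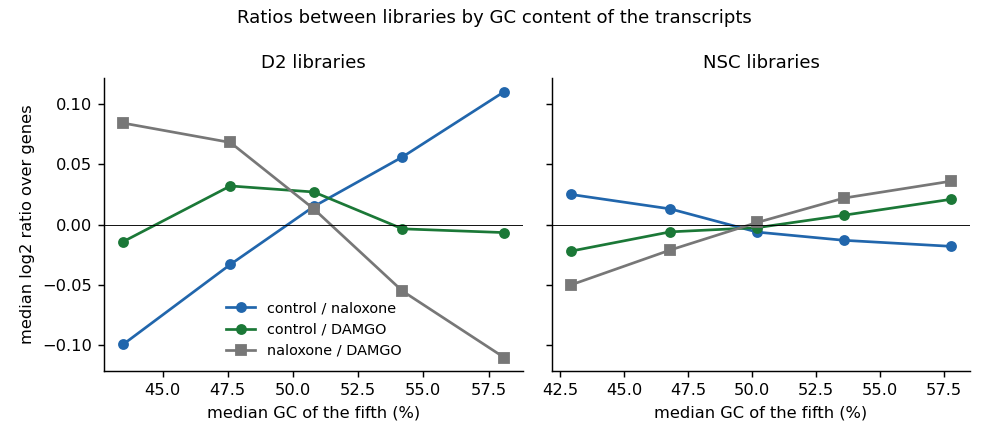
Median log2 ratio between pairs of libraries over genes of at least 20 CPM, in 5 bins of transcript GC content, for the D2 libraries (left) and the NSC libraries (right). In D2 both pairs with the naloxone library change across the bins, from -0.10 to 0.11 for control over naloxone, whereas control over DAMGO ends at -0.01.

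Some differences lay in genes whose reads were divided between features, and their values are uncertain. Of the 99 genes called higher 59 had whole counts in all 3 libraries (within 0.005 of a whole number), and of the 195 called lower 73 did, against 61.2% of all tested genes. Pgk1-rs7, a copy of a glycolysis gene, had 104, 0 and 0 counts. Gm28042 had 89, 0 and 0 counts and overlaps Pla2g4b, which was called lower with 36, 91 and 105, and together they had 12.3, 10.8 and 11.9 CPM. Gm20721 overlaps Gnas on the opposite strand and stood at 46.2, 235 and 208 CPM, and in NSC at 263, 153 and 52.0 CPM. Since the kit does not mark strand, reads of these 2 cannot be told apart. Together they had 1780, 1560 and 1600 CPM in D2, slightly more in the control. Tom1 had 317, 0 and 125 counts and Lsm7, a splicing factor gene, 0, 79 and 49, at least 25.2-fold lower in the control. Gm42418 stood at 536, 1384 and 955 CPM. Spp1, Penk, Mmp2, Timp1, Col1a1, Col3a1, Bgn, S100a6, Igf2 and H19 had whole counts.

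The same comparison in NSC is a background for these counts. There, 72 genes were called higher (0.545%) and 116 lower (0.878%). At 2-fold there were 15 (0.114%) and 30 (0.227%), on TPM 71 (0.538%) and 60 (0.454%), and among genes of at least 20 CPM 1 each way (0.0124%). Of the 99 genes called higher in D2, 67 were tested in NSC, where 4 were called higher, all predicted genes, and 4 lower, Timp1 among them. The control lay above both NSC ligand libraries in 17 of the 67 and below both in 23. Across 12421 genes tested in both states, the log2 ratio of control over the ligand mean had a Pearson r of -0.016 and a Spearman rank correlation of -0.00037, given as a description over genes, which are not independent. In 70 of the 99 genes the D2 control was above all 3 NSC libraries, on levels scaled separately in each state. The 99 were chosen for a high D2 control and the share over all tested genes was not taken, so the 70 is no independent support. Of the 8 called matrix genes, 7 had their highest NSC level in the naloxone library. Without Fn1 the 7 summed to 2.91 CPM in the NSC control, 13.8 CPM with naloxone and 1.65 CPM with DAMGO. On these sums the naloxone library was thus the highest of the NSC set. That the control was the highest of the D2 set is fixed by the call rule. Thbs2 was the exception in NSC, at 1.03 CPM in the control, 0.957 CPM with naloxone and 0.769 CPM with DAMGO. The NSC sums rest on few counts, with Col1a2 at 4, 57 and 0 and Col6a3 at 0, 2 and 1. Naloxone was also the highest NSC library for 33 of the 67 genes called higher in D2 and tested in NSC, control for 17 and DAMGO for 17.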

How the data were processed

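RNA was isolated with Trizol and sequenced after Illumina TruSeq preparation, per the labels' protocols. That kit does not mark strand. The authors deposited an expected count and a TPM value per gene and library, and the FPKM column was not used. Bowtie, RSEM and mm10 are named per the submitters' processing notes, with versions, annotation and filtering steps not given in the sources used here. Symbols came from GENCODE M21 (28756 of 29267 identifiers matched).

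Rounding of expected counts to whole numbers shifted a total by at most 46.1. Totals were 10218353, 8417074 and 8809642 in D2 (control, naloxone, DAMGO) and 9112916 to 13561237 in NSC. Counts of genes with a mean of at least 10 were scaled by TMM (edgeR 4.0.16, R 4.3.3), separately in each state. Log2 ratios used a prior count of 2. Intervals are exact binomial 95% intervals, which cover counting error and not the spread between libraries. A floor of 3 counts over both ligand libraries gives lower bounds. Just inside the filter 46 genes had a mean of 10.0 counts (median log2 ratio 0.07), and just outside 51 had 9.67 (-0.13). The chi-square per degree of freedom between D2 libraries was 3.79 to 4.02, so none was a copy.

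No significance test was run, since each group held 1 library and the 2 ligands are not replicates. The script that applies the call rule was checked on simulated counts with known fold changes, and no value from that check is given. Alternatives were DESeq2 1.42.0 size factors, library totals, TPM, another prior count, filters and folds, and leaving out a ligand library. Members and lists were chosen with earlier results of these data known. Named genes were, among genes at or above 20 CPM, the 15 highest and 15 lowest by the ratio to the nearer ligand library, without predicted or clone names, then up to 4 called members of each list discussed (or up to 2 of the most abundant) and the opioid receptor genes, TET genes, Mki67, Nes, Tubb3 and Gfap. All other genes given with values were chosen after their values were seen.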

Additional observations from a re-analysis of the deposited data

Results flagged for a closer look

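For the genes given here the D2 control lay on one side of both D2 ligand libraries and the NSC control on the opposite side of both NSC ligand libraries. The difference between the states was not tested, since each group held 1 library. Values are log2 ratios of control over the mean of the ligand libraries. The fibronectin gene Fn1 was at 2.32 in D2 and -0.13 in NSC, Foxo1 at 1.24 and -0.14, and Timp1 at 3.43 and -0.74. Gadd45a was at 0.669 and -0.13, Maff, a transcription factor gene, at 0.888 and -0.24, and Neat1, a nuclear noncoding RNA, at 0.894 and -0.10. Bst2 was at 1.35 and -0.54 and Ass1 at 1.6 and -0.20. In the opposite sense Gm20721 was at -2.26 in D2 and 1.36 in NSC, Zfp760 at -0.968 and 0.06, and Rif1, a gene of replication timing, at -0.63 and 0.04. Reads of Gm20721 cannot be told apart from those of Gnas, which it overlaps. Several of the NSC values are near 0.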

How the results depend on the processing

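No paired analysis was possible because the D2 groups held 1 library each and share 1 replicate number. A fit over both states addresses another comparison and was not run. The number of genes called in D2 depended most on abundance and on requiring both ligand libraries. Genes called higher and lower (99 and 195) numbered 660 and 899 with no filter on low counts, 5 and 17 with a mean of at least 100 counts, 44 and 40 at 2-fold, and 169 and 378 against the mean of the ligand libraries. With 1 ligand library left out they were 274 to 289 and 451 to 455. In settings chosen after seeing the data they were 59 and 73 for genes with whole expected counts and 3 and 9 for genes of at least 20 CPM. DESeq2 size factors, library totals, TPM and a prior count of 5 left both numbers within 1.5-fold.

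In NSC (72 higher and 116 lower) the numbers were 974 and 539 with no filter, 2 and 4 with a mean of at least 100 counts, 15 and 30 at 2-fold, 158 and 215 against the mean, 20 and 42 with whole counts, 1 and 1 at 20 CPM, and 212 to 304 and 253 to 263 with a ligand library left out. On TPM 60 genes were lower. The number of lists with at least 2 called members was 4, and 9 to 9 with a ligand library left out.

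For the 142 named genes, 771 of 852 recomputed values moved by less than their counting interval and 81 moved further. Of these 81, 32 were on TPM. Among called genes 0 reversed. With a ligand library left out this is fixed by the call rule, which puts the control on one side of each. Some genes that were not called did change sign. The D2 log2 ratio of Fabp7 was 0.0446 against the ligand mean and -0.0618 against DAMGO alone. For Itgb1 these were -0.0233 and 0.0472. Depth limits low genes: a floor of 3 counts is 0.294 to 0.356 CPM in D2.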

Other observations

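Energy metabolism and translation genes lay close to the ligand libraries in the D2 control. Of 27 oxidative phosphorylation genes 0 were called, with a median log2 ratio of 0.03, and the control lay above both in 12 and below both in 4. Of 22 genes of glycolysis and hypoxia 0 were called, with a median of 0.04. Gapdh, a glycolytic enzyme gene, stood at 1088, 1005 and 1141 CPM in control, naloxone and DAMGO. Ribosome biogenesis genes had 0 called of 19 and a median of 0.06, and Ncl, which encodes nucleolin, stood at 220, 259 and 261 CPM. The TET dioxygenases, which oxidise 5-methylcytosine, were not called: Tet1 stood at 35.4, 38.6 and 42.3 CPM, Tet2 at 37.8, 41.9 and 41.1 CPM and Tet3 at 199, 192 and 195 CPM. On the deposited TPM values Tet1 ran the other way, at 9.9, 9.12 and 8.71.

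ERK feedback and ETV genes had 0 called of 16, with the control above both ligand libraries in 10 and below both in 3 and a median of 0.14. Etv5, an ETS factor induced by FGF signalling, stood at 298, 221 and 255 CPM, a ratio of 1.25 (interval 1.19 to 1.31). In NSC the ERK list lay above both in 3 and below both in 3. In D2, 26 of the 40 lists had no called member.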
